A study of Homo sapiens with 6 samples.

Results

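The 42 genes described here encode the human kinetochore and the spindle assembly checkpoint, and were chosen by symbol. All 42 were among the 16834 genes of the deposited table, and they comprised 19 genes of the centromere and of centromeric histone deposition, 13 genes of the KMN network with its SKA partner, and 10 genes of the RZZ complex and checkpoint. Their transcripts were recovered by immunoprecipitation (IP) of tagged ribosomes from asynchronous HEK293-T Flp-In cells, a human embryonic kidney line with epithelial-like morphology. The cells carried a single inserted copy of the ccTaggedRP construct, driven by the CAG promoter, whose 1 bicistronic mRNA is cleaved at the protein level into Flag-RPL10a-hCdt and HA-RPL10a-hGem, both built on mouse RPL10a. The CDT1 degron is predicted to leave the Flag-tagged protein in G1 and S and the geminin degron to leave the HA-tagged protein in S and G2/M. RNA from 3 Flag-IPs was compared with RNA from 3 HA-IPs, to ask which transcripts travel with ribosomes of each phase.

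Both tags are encoded in the same cell line, so by design the groups differed in the antibody used and not in genotype or treatment. Neither input RNA nor IPs from untagged cells were analysed here. The labels give replicate numbers without saying that these were separate cultures, so the p-values measure the spread between these samples, which may be technical. In such bulk IPs, fewer cells of a kind and less RNA per cell cannot be told apart.

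The kinetochore is the protein assembly that joins each centromere to spindle microtubules. Its inner layer, the constitutive centromere-associated network of CENP proteins, sits on nucleosomes that hold the histone variant CENP-A, and its outer layer, the KMN network of KNL1, MIS12 and NDC80 complexes, binds the microtubule. The checkpoint proteins load onto kinetochores that lack attachment and hold back the anaphase-promoting complex until every chromosome is attached, and many of their genes are transcribed late in the cell cycle.

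The libraries held 23174532 to 33429519 reads on the listed genes in the Flag-IPs and 28737728 to 44134833 in the HA-IPs, and each member had at least 159 reads in every library. Of 13 kidney epithelial markers, 9 were listed, with summed levels of 17029 to 17337 normalized counts in the Flag-IPs and 18931 to 19235 in the HA-IPs. The sum was mostly KRT8, and single markers differed in direction, with 2 called toward the HA-IPs in limma (EPCAM and CDH1) and 3 toward the Flag-IPs. The latter were PAX2, at 93.6 to 131 normalized counts against 44.1 to 79.7, PAX8, at 24.9 to 44.2 against 0 to 4.41, and SLC34A1, at 59.0 to 119 against 1.41 to 5.94. CDH16, UMOD, AQP2 and NPHS1 were not listed. Heart muscle markers also differed between the groups, and all 17 listed of 21 were higher in the Flag-IPs in limma. Replicates 1, 2 and 3 of the Flag-IPs summed to 226075, 162687 and 106651 normalized counts, against 4220, 2885 and 22037 in the HA-IPs. These sums thus varied within each group as well, and the source of the differences was not tested. The listed fibroblast markers (8 of 10) summed to 5256 to 7785 against 1890 to 2510, those of endothelium (6 of 9) to 196 to 299 against 89.1 to 108, and the 1 listed of 6 blood markers lay at 52.6 to 87.2 against 28.2 to 35.7. The part of these markers in the results below was not tested.

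The promoters of members that passed the test below are printed because genes transcribed late in the cell cycle often carry a CCAAT box upstream of a cell cycle genes homology region (CHR). RefSeq promoters on GRCh38.p14 matched 34 of the 42 members by symbol, and KNL1, KNTC1, TTK, CENPM, CENPH, CENPL, BUB3 and MIS18A were not matched. Each sequence below is the 120 bases before the start annotated in RefSeq, read 5′ to 3′ on the strand of the gene. Capitals mark CCAAT or a CHR (TTTGAA or TTCGAA) on either strand. For BUB1B, CENPE, ZWINT and PMF1, the GENCODE gene position given further below starts upstream of the RefSeq start. Part of their printed bases therefore lies inside the gene, including most of the CENPE window and the CHR of BUB1B.
BUB1 (chr2:110678064-110678183, minus strand): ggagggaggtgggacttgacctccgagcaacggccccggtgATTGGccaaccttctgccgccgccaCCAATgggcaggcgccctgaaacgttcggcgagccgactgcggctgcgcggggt
BUB1B (chr15:40160949-40161068, plus strand): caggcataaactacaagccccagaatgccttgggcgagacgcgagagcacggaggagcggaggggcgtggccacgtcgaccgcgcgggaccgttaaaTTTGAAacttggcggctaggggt
CENPE (chr4:103198344-103198463, minus strand): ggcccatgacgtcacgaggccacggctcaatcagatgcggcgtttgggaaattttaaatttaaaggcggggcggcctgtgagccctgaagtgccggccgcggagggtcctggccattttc
ZWINT (chr10:56361260-56361379, minus strand): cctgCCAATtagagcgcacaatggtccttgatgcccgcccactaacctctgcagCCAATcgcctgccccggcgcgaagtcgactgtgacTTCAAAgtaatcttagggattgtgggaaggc
PMF1 (chr1:156212887-156213006, plus strand): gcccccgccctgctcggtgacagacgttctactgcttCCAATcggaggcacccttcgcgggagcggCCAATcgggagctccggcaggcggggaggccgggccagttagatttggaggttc

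In the printed window, BUB1 and ZWINT each held a pair of CCAAT boxes, ZWINT also held a CHR, PMF1 held a pair with no CHR, BUB1B held a CHR with no CCAAT box, and CENPE held neither. A further CHR of BUB1 lay just after its start, outside the printed bases. Over the full window from 250 bases before to 50 bases after the start, a CHR was found in 19 of the 34 members (55.9%), against 16.6% of 27305 RefSeq promoters and 11.0% of the 11687 promoters of listed genes. CCAAT was found in 21 of 34 (61.8%), against 35.7% and 36.5%. An E2F site (TTTCCCGC, TTTGGCGC, TTTCGCGC or TTTGCCGC) was found in 4 of 34 (11.8%), against 3.33% and 5.28%. Both strands were searched, no motif contains another, and a match is a run of letters and not a shown site. Among the members with a promoter, a CHR occurred in 2 of 3 called higher in the HA-IPs, in 1 of 2 called higher in the Flag-IPs and in 16 of 29 that did not pass.

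With calls made in limma at an adjusted p no higher than 0.05, and with the Benjamini-Hochberg adjustment over all 16834 genes, 6 members were higher in the HA-IPs, namely KNL1, KNTC1, TTK, BUB1, BUB1B and CENPE. That is 14.3% of the members, beside 5.79% of all genes in the same direction. Another 3 members, CENPM, PMF1 and ZWINT, were higher in the Flag-IPs, which is 7.14% beside 7.10% of all genes. The remaining 33 members did not pass. In a fit limited to genes averaging at least 50 normalized counts, 7 members were called toward the HA-IPs, with NDC80 added, and 3 toward the Flag-IPs. The shares of all genes in that fit were 7.49% and 6.94%. Over all members the log2 fold change, positive where the HA-IPs are higher, ran from -0.29 to 0.35 with a median of 0.025, beside a median of -0.0049 over all genes, and 23 members were above 0 and 19 below. Without Flag-IP replicate 1 the median was 0.10. Flag-IP and HA-IP values were fully separate in 20 members, beside 32.2% of all genes, with 15 of the members higher in the HA-IPs and 5 higher in the Flag-IPs, beside 16.1% of all genes each way. At an unadjusted p under 0.05 there were 19 members, and the share of all genes at that threshold was not counted, here or below. With each library scaled to the same total, which moves the median of all genes to -0.057, the member median was -0.028 and 19 members were above 0.

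The counts changed when single libraries were left out. Without Flag-IP replicate 2, only KNTC1 and TTK remained called toward the HA-IPs in limma and no member toward the Flag-IPs, beside 0.612% and 3.07% of all genes, while 10 and 6 had an unadjusted p under 0.05. Calls toward the HA-IPs numbered 3 without HA-IP replicate 1 (beside 1.34% of all genes), 4 without HA-IP replicate 2 (1.59%), 3 without HA-IP replicate 3 (1.89%), 6 without Flag-IP replicate 1 (5.19%) and 7 without Flag-IP replicate 3 (9.21%). Calls toward the Flag-IPs numbered 0 without HA-IP replicate 1 (beside 3.30% of all genes), 0 without HA-IP replicate 2 (3.75%), 1 without HA-IP replicate 3 (5.33%), 1 without Flag-IP replicate 1 (6.75%) and 3 without Flag-IP replicate 3 (8.96%). At an unadjusted p under 0.05 there were 4 and 6 members toward the Flag-IPs without HA-IP replicate 1 and without HA-IP replicate 2. On recovered whole reads edgeR called the same 9 genes, beside 5.35% and 7.31% of all genes. DESeq2 called 7 and 2, beside 6.20% and 7.31%, with CENPF added and PMF1 dropped.

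The calls fell into the 3 classes as follows. Of the 10 RZZ and checkpoint genes, limma called 4 toward the HA-IPs and none toward the Flag-IPs, and all 7 with an unadjusted p under 0.05 were higher in the HA-IPs. Of the 13 KMN and SKA genes, 1 was called higher (7.69%) and 2 lower (15.4%). Of the 19 centromere genes 1 was called higher and 1 lower (5.26% each). The checkpoint share toward the HA-IPs was 40.0%. Over all genes the shares were 5.79% toward the HA-IPs and 7.10% toward the Flag-IPs. Each centromere share is 1 gene and lies near these. The median log2 fold change was 0.15 in the checkpoint class, -0.052 in the KMN class and 0.023 in the centromere class, and 9, 4 and 10 of their genes were above 0. The checkpoint median was 0.099 with equal totals and 0.16 with quantile normalization, while the centromere median was -0.030 with equal totals. The classes also differed in coding length, with medians of 2245.5, 831 and 900 nucleotides in the checkpoint, KMN and centromere classes. Once the trends with GC content and coding length described below were removed, their median log2 fold changes were 0.13, 0.061 and 0.074. The number of checkpoint calls was 2 to 5 when 1 library was left out, and it was 2 without Flag-IP replicate 2 and without HA-IP replicate 1 or 3. The differences between the classes were not tested.

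**Figure D1:**
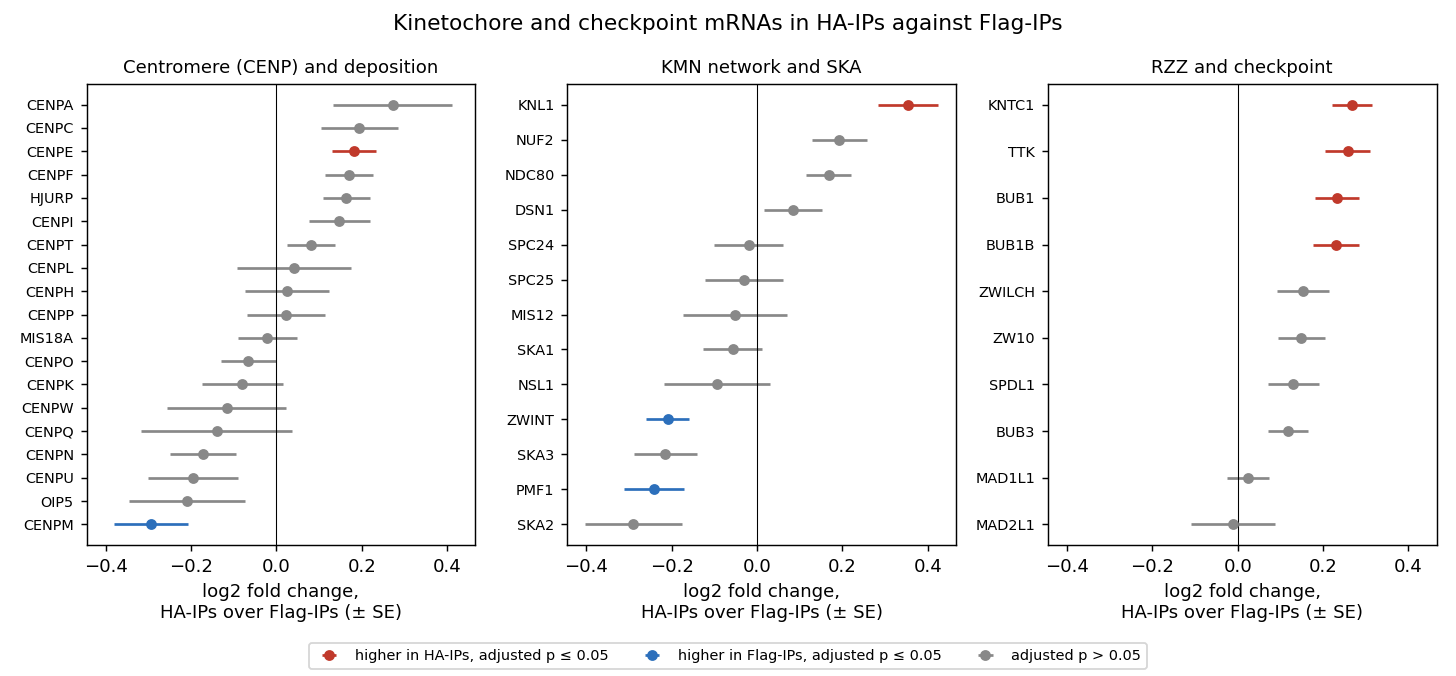
Log2 fold change, HA-IPs relative to Flag-IPs, for each of the 42 members by class (points, limma estimate; bars, ± SE; 3 libraries per group), with members past an adjusted p of 0.05 in red (higher in the HA-IPs) and blue (higher in the Flag-IPs). In the checkpoint panel 9 of 10 points lie right of 0, and in the KMN panel 9 of 13 lie left of it.

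The mean of the log2 values of the 10 checkpoint genes, each gene centred on its mean over the 6 libraries, was -0.036, -0.098 and -0.099 in Flag-IP replicates 1, 2 and 3 against 0.073, 0.053 and 0.11 in the HA-IPs. Every HA-IP thus lay above every Flag-IP in this class. The 19 centromere genes had means of 0.096, -0.059 and -0.038 in the Flag-IPs against -0.029, 0.011 and 0.019 in the HA-IPs. The 13 KMN genes had 0.093, -0.0070 and -0.038 against -0.038, -0.033 and 0.023. In both of these classes the groups overlapped and Flag-IP replicate 1 was the highest library of all 6. It was also the highest Flag-IP for 23 of the 42 members. The same mean over all genes with at least 50 normalized counts was 0.039, 0.020 and 0.013 in the Flag-IPs against -0.035, -0.027 and -0.0094 in the HA-IPs.

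**Figure D2:**
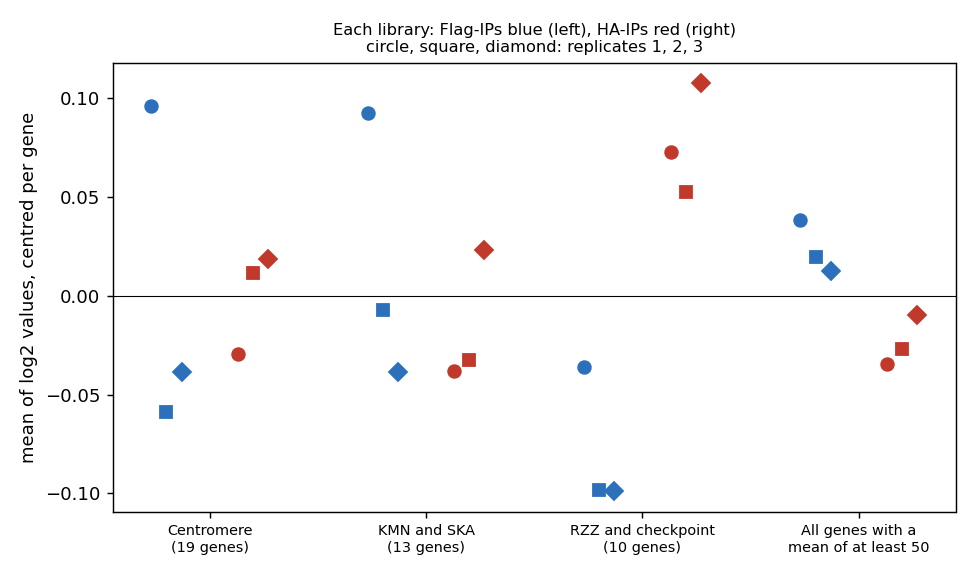
Mean over each class of the log2 values centred per gene, for each library (blue, Flag-IPs; red, HA-IPs; circle, square and diamond are replicates 1, 2 and 3), beside the mean over all genes with at least 50 normalized counts. The checkpoint class has all HA-IPs between 0.053 and 0.11 and all Flag-IPs below 0, while Flag-IP replicate 1 tops the centromere and KMN classes.

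At the base of the kinetochore, CENPA encodes the centromeric histone H3 variant, HJURP its chaperone, and OIP5, also called MIS18 beta, and MIS18A the licensing factors for its deposition. None of these 4 passed in limma, and 1 of them had an unadjusted p under 0.05. CENPA had the highest log2 fold change of its class at 0.27 ± 0.14 (SE), but its HA-IPs, at 201 to 277 normalized counts, overlapped Flag-IPs of 180 to 217, and the adjusted p was 0.238. HJURP was higher in every HA-IP, at 2212 to 2385 normalized counts against 1942 to 2086, with a log2 fold change of 0.16 ± 0.056 (SE) and an adjusted p of 0.0772. OIP5 stood at -0.21 ± 0.14 (SE) and MIS18A at -0.021 ± 0.069 (SE) on the log2 scale. Of the exon bases of OIP5, 92.5% lie in genes on the opposite strand, so its reads cannot be told apart from theirs unless counting used strand, which is not given in the sources used here.

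The constitutive centromere network showed no call toward the HA-IPs among its 13 members in limma. CENPC, the scaffold that bridges CENP-A nucleosomes to the MIS12 complex, had a log2 fold change of 0.19 ± 0.090 (SE) and an adjusted p of 0.192. In the CENP-HIKM group, CENPI stood at 0.15, CENPH at 0.025, CENPK at -0.080 and CENPM at -0.29 on the log2 scale. CENP-L and CENP-N, which contact the CENP-A nucleosome, stood at 0.042 and -0.17. In the CENP-OPQUR group, CENPU, whose protein brings PLK1 to the centromere, stood at -0.19, CENPQ at -0.14, CENPO at -0.066 and CENPP at 0.023. CENPT and CENPW, histone-fold proteins that also recruit NDC80, stood at 0.081 and -0.12. Exons of CENPP (45.5%), CENPO (36.2%), CENPU (20.9%) and CENPT (16.1%) also overlap genes on the other strand, as do smaller shares of CENPL (8.54%), ZWILCH (10.7%) and MIS12 (4.76%). CENPN shares 18.2% of its exon bases with genes on its own strand and a further 6.95% with genes on the other strand alone.

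CENPM (ENSG00000100162, chr22:41938737-41947152 on GRCh38, as are all positions given) encodes a CENP-HIKM subunit that resembles a small GTPase without its activity. Its levels were 901, 738 and 792 normalized counts in Flag-IPs 1, 2 and 3 against 614, 681 and 685 in the HA-IPs. All 3 Flag-IPs lay above all 3 HA-IPs, with Flag-IP replicate 1 the highest and HA-IP replicate 1 the lowest. The mean dropped by 18.6% from the Flag-IPs to the HA-IPs (log2 fold change -0.29 ± 0.087 SE, adjusted p = 0.0466 in limma). Leaving out any 1 library ended the call, with adjusted p-values of 0.0527 to 0.178.

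The fibrous corona, the outermost layer that captures microtubules laterally, held the 1 centromere-class call toward the HA-IPs. CENPE (ENSG00000138778, chr4:103105349-103198445) encodes a plus-end-directed kinesin that moves chromosomes to the spindle equator, and its promoter window above held neither motif. It stood at 4600, 4872 and 5100 normalized counts in the Flag-IPs against 5419, 5442 and 5667 in the HA-IPs. Every HA-IP was above every Flag-IP, by 13.4% on the means (log2 fold change 0.18 ± 0.051 SE, adjusted p = 0.0391 in limma). The call held in 1 of the 6 fits without a library, the one without Flag-IP replicate 3 (adjusted p = 0.0103), and the other adjusted p-values were 0.0781 to 0.138. CENPF, a farnesylated protein of the same layer and the member with the most reads, stood at 18896, 19660 and 21655 normalized counts against 21915, 22543 and 23226. These groups also did not overlap, with HA-IPs 12.4% higher, but the adjusted p was 0.0717 in limma and 0.0420 in DESeq2. Without CENPE and CENPF, the other 17 centromere genes had a median of -0.021 on the log2 scale and 0 calls toward the HA-IPs in limma, with 3 at an unadjusted p under 0.05 in either direction.

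In the KMN network, KNL1 had the largest log2 fold change of all 42 members. KNL1 (ENSG00000137812, chr15:40594020-40664342) encodes the scaffold whose MELT repeats, once phosphorylated by MPS1, dock BUB3 with BUB1 and BUBR1. Its levels were 2665, 2893 and 3289 normalized counts in the Flag-IPs against 3712, 3661 and 3895 in the HA-IPs. The HA-IPs lay together above all Flag-IPs, which were spread more widely (SD of 316 against 123 normalized counts, n = 3 each). The difference was 27.4% (log2 fold change 0.35 ± 0.071 SE, adjusted p = 0.00922 in limma). The call was lost without Flag-IP replicate 2 (adjusted p = 0.0564) and kept without each of the other libraries.

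ZWINT (ENSG00000122952, chr10:56357227-56361273), whose protein binds KNL1 and links it to the RZZ complex, moved the opposite way from its partner. It stood at 4328, 4079 and 4368 normalized counts in the Flag-IPs against 3583, 3663 and 3804 in the HA-IPs. Every Flag-IP was above every HA-IP, and the mean dropped by 13.5% in the HA-IPs (log2 fold change -0.21 ± 0.050 SE, adjusted p = 0.0200 in limma). The call was lost without Flag-IP replicate 2, HA-IP replicate 1 or HA-IP replicate 2 (adjusted p of 0.0522, 0.0919 and 0.0835).

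The NDC80 complex, a rod whose NDC80 and NUF2 heads grip the microtubule and whose SPC24 and SPC25 ends hold the MIS12 complex and CENP-T, had its genes on both sides of 0, with no call in limma and 2 genes at an unadjusted p under 0.05. NDC80 stood at 1552, 1540 and 1557 normalized counts in the Flag-IPs against 1767, 1697 and 1759 in the HA-IPs. NUF2 stood at 1095, 1173 and 1059 against 1252, 1218 and 1332. Neither gene had overlapping groups, and their log2 fold changes were 0.17 ± 0.052 (SE) and 0.19 ± 0.065 (SE), with adjusted p-values of 0.0566 and 0.0750 in limma. SPC24 stood at 675, 686 and 657 normalized counts against 600, 683 and 712. SPC25 stood at 600, 509 and 529 against 491, 537 and 576. Both SPC genes had overlapping groups, with log2 fold changes of -0.020 ± 0.080 (SE) and -0.031 ± 0.091 (SE).

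The MIS12 complex joins the inner to the outer kinetochore. PMF1 (ENSG00000160783, chr1:156212993-156240042), the human NNF1 subunit, was its only called gene, at 765, 698 and 706 normalized counts in the Flag-IPs against 615, 601 and 616 in the HA-IPs. All Flag-IPs lay above all HA-IPs, and the mean dropped by 15.5% in the HA-IPs (log2 fold change -0.24 ± 0.071 SE, adjusted p = 0.0457 in limma). The call held in 1 of the 6 fits without a library, the one without Flag-IP replicate 3 (adjusted p = 0.0486), and the other adjusted p-values were 0.105 to 0.148. Of the exon bases of PMF1, 53.7% are shared with the PMF1-BGLAP readthrough gene on the same strand, so its count is uncertain. DSN1 stood at 977, 997 and 1104 normalized counts against 1111, 1038 and 1110. MIS12 stood at 931, 692 and 640 against 783, 683 and 692, and NSL1 at 729, 573 and 486 against 529, 553 and 571. These 3 genes had overlapping groups, and Flag-IP replicate 1 was the highest of the 6 libraries for both MIS12 and NSL1.

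The SKA complex, which strengthens the grip of NDC80 on depolymerizing microtubule ends, had 3 genes below 0 and no call in limma, with 2 at an unadjusted p under 0.05, although SKA1 turned to 0.019 once the trend with coding length was removed. SKA2 had the lowest log2 fold change of its class, at 1155, 930 and 800 normalized counts in the Flag-IPs against 721, 810 and 805 in the HA-IPs (-0.29 ± 0.11 SE, adjusted p = 0.124). Its groups overlapped, with Flag-IP replicate 3 below HA-IP replicates 2 and 3. SKA3 stood at 664, 608 and 604 against 540, 537 and 538, without overlap (-0.21 ± 0.074 SE, adjusted p = 0.0817). SKA1 stood at 744, 803 and 729 against 741, 711 and 733, with overlap (-0.057 ± 0.069 SE).

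All 4 genes of the RZZ complex and its partner Spindly, which together build the corona and recruit dynein, had HA-IPs above Flag-IPs without overlap. Of all genes, 16.1% had the same order of the groups. Only KNTC1 of the 4 was called in limma. All 4 are among the longer members described below, with coding lengths of 1773 to 6627 nucleotides. KNTC1 (ENSG00000184445, chr12:122527246-122626396) encodes ROD, the long scaffold of RZZ. Its levels were 6202, 6048 and 6543 normalized counts in the Flag-IPs against 7622, 7467 and 7543 in the HA-IPs. The HA-IPs lay close together and well above the highest Flag-IP, by 20.4% on the means (log2 fold change 0.27 ± 0.047 SE, adjusted p = 0.00497 in limma). KNTC1 was the only member that passed in all 6 fits without a library, with adjusted p-values of 0.000956 to 0.0443. ZW10 stood at 1684, 1773 and 1847 against 1982, 1935 and 1962 (0.15 ± 0.055 SE, adjusted p = 0.0999). ZWILCH stood at 1836, 1626 and 1627 against 1927, 1852 and 1872 (0.15 ± 0.062 SE, adjusted p = 0.131). SPDL1, which encodes Spindly, stood at 2264, 2201 and 2004 against 2266, 2404 and 2404 (0.13 ± 0.060 SE, adjusted p = 0.184). For ZWILCH and SPDL1 the highest Flag-IP was close to the lowest HA-IP, so the groups were barely separate.

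Of the 6 MAD, BUB and MPS1 genes, limma called TTK, BUB1 and BUB1B toward the HA-IPs and not the others. These 3 encode kinases or a pseudokinase, and they also have the longest coding sequences of the 6, at 2571, 3255 and 3150 nucleotides. Once trends with GC content and coding length were removed, BUB3 was called (adjusted p = 0.0231 in limma) and BUB1B was not (0.0763). TTK (ENSG00000112742, chr6:80003887-80042527) encodes MPS1, the kinase that starts checkpoint signalling at KNL1. It stood at 2753, 2859 and 2674 normalized counts in the Flag-IPs against 3337, 3160 and 3410 in the HA-IPs. The lowest HA-IP was above the highest Flag-IP, and the difference was 19.6% (log2 fold change 0.26 ± 0.052 SE, adjusted p = 0.00972 in limma). The call was lost without HA-IP replicate 1 (adjusted p = 0.0520) and kept without each of the other libraries.

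BUB1 (ENSG00000169679, chr2:110637528-110678063) encodes the kinase that phosphorylates histone H2A and brings shugoshin to the inner centromere. Its levels were 6375, 6241 and 6635 normalized counts in the Flag-IPs against 7607, 7132 and 7896 in the HA-IPs. The groups did not overlap, and the HA-IPs were 17.6% higher (log2 fold change 0.23 ± 0.052 SE, adjusted p = 0.0143 in limma). The call was lost without Flag-IP replicate 2, HA-IP replicate 1 or HA-IP replicate 3 (adjusted p of 0.0876, 0.0693 and 0.0669).

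BUB1B (ENSG00000156970, chr15:40161023-40221123) encodes BUBR1, the pseudokinase that joins MAD2, BUB3 and CDC20 in the mitotic checkpoint complex. It stood at 4917, 4911 and 5079 normalized counts in the Flag-IPs against 5452, 5899 and 6160 in the HA-IPs. The Flag-IPs lay close together below all HA-IPs, which were 17.5% higher (log2 fold change 0.23 ± 0.053 SE, adjusted p = 0.0173 in limma). The call was lost without Flag-IP replicate 2, HA-IP replicate 2 or HA-IP replicate 3 (adjusted p of 0.0893, 0.0809 and 0.0792). Of its exon bases, 10.6% are shared with PAK6 and a readthrough gene on the same strand.

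**Figure D3:**
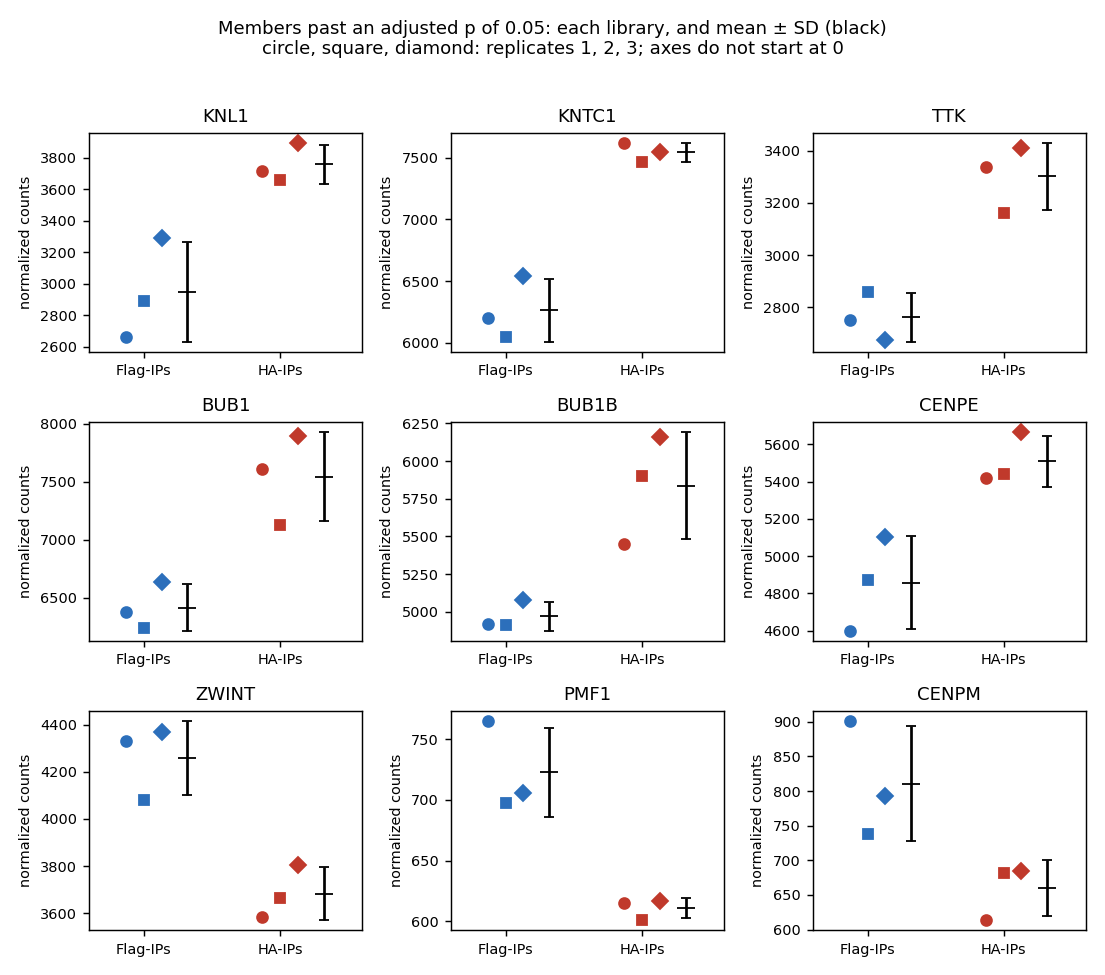
Normalized counts of the 9 members past an adjusted p of 0.05 in each library (circle, square and diamond are replicates 1, 2 and 3) with the group mean ± SD of 3 in black, on axes that do not start at 0. The groups do not overlap in any of the 9 panels, and the 6 members higher in the HA-IPs differ by 13.4% to 27.4% on the means.

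The partners of these proteins in the checkpoint complex gave smaller differences. BUB3, the propeller protein that carries BUB1 and BUBR1 to KNL1, was higher in every HA-IP, at 6921 to 7175 normalized counts against 6310 to 6797 (log2 fold change 0.12 ± 0.047 SE, adjusted p = 0.133). MAD1L1, which tethers MAD2 at unattached kinetochores, stood at 0.025 ± 0.049 (SE) on the log2 scale with an adjusted p of 0.797, and 99.7% of its exon bases lie in an unnamed same-strand gene that was not listed. MAD2L1, which encodes the MAD2 protein that closes around CDC20, stood at 1974, 1585 and 1481 normalized counts in the Flag-IPs against 1727, 1507 and 1741 in the HA-IPs. It was the only checkpoint gene below 0 (-0.011 ± 0.098 SE, adjusted p = 0.959), and its groups overlapped, with Flag-IP replicate 1 the highest library.

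Levels per kilobase of transcript, the mean normalized count over 6 libraries divided by the length of the canonical transcript, allowed the members to be set beside each other. The highest levels were those of ZWINT (2138 normalized counts per kb), CENPF (2072), BUB1 (1856), BUB1B (1473) and MIS18A (1444). The lowest were those of CENPP (36.8), NSL1 (43.7) and CENPC (95.2). Genes whose proteins share 1 complex did not have equal levels. The ratio of the highest to the lowest level was 1.53 in SKA, 1.99 in RZZ with Spindly, 2.65 in NDC80 (SPC24 to NDC80), 5.81 among the MAD, BUB and MPS1 genes (MAD2L1 to BUB1) and 14.3 in MIS12 (NSL1 to PMF1). The length of the canonical transcript enters these levels directly, and NSL1 and CENPP have canonical transcripts of 13115 and 8293 bases for coding lengths of 843 and 864.

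**Figure D4:**
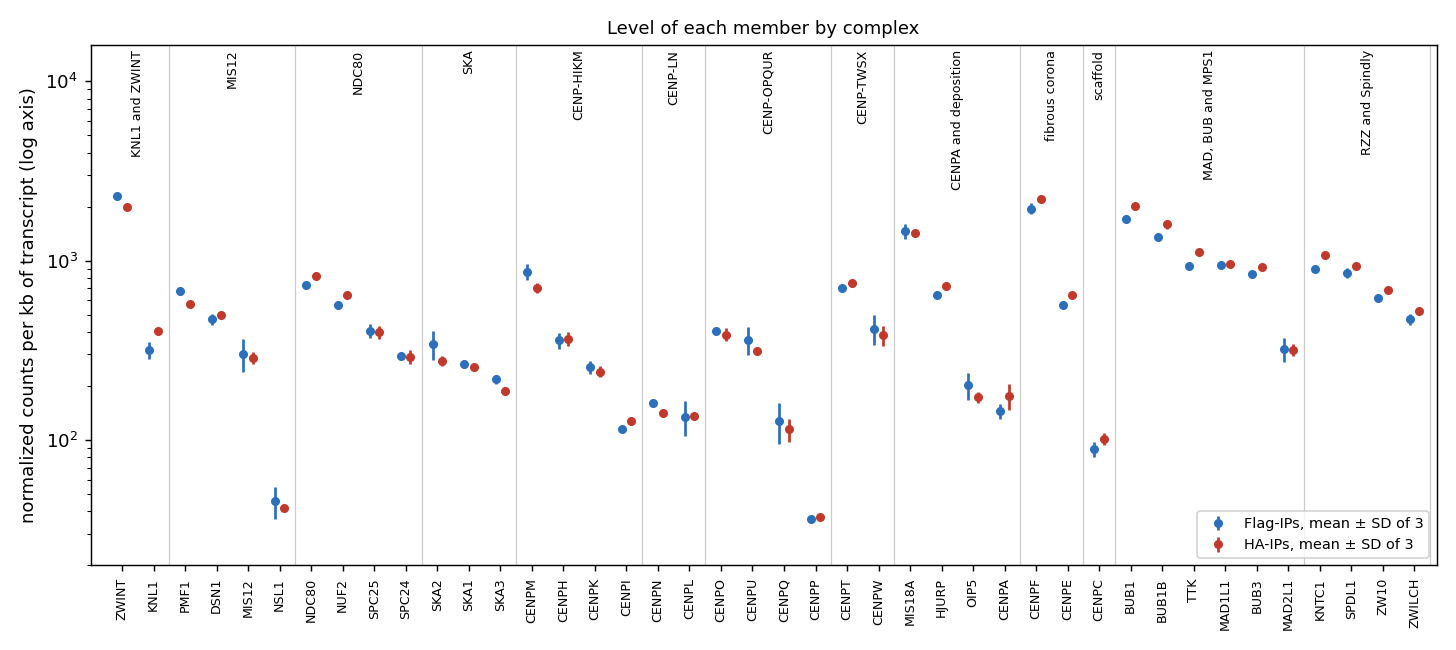
Level of each member in normalized counts per kb of canonical transcript (log axis), as mean ± SD of the 3 Flag-IPs (blue) and the 3 HA-IPs (red), grouped by complex. Levels range from 36.8 for CENPP to 2138 for ZWINT, and the distance between the groups is small beside the distance between genes.

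The members' fold changes varied with coding length, which the choice of members did not use. The median coding length of the 12129 protein-coding genes averaging at least 50 normalized counts was 1449 nucleotides. All 16 members at or above it had a positive log2 fold change, with a median of 0.17 and with all 6 calls toward the HA-IPs. Of the 26 shorter members, 7 were positive, the median was -0.062, and they held all 3 calls toward the Flag-IPs. Other genes shared the direction, since 69.6% of the longer genes were positive with a median of 0.073, and 36.8% of the shorter genes with a median of -0.060. Calls toward the HA-IPs and toward the Flag-IPs made up 13.2% and 2.83% of the longer genes and 2.63% and 11.0% of the shorter genes.

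Spearman's rho between coding length and log2 fold change was 0.70 over the 42 members and 0.44 over the 12129 genes, as a description across genes that share the same 6 libraries and are not independent. For the number of exons rho was 0.67 and 0.28, and for the mean level 0.50 and 0.26. Which of these features matters was not tested. The 8 members of at least 2500 nucleotides, which are CENPC, CENPE, CENPF, KNL1, KNTC1, BUB1, BUB1B and TTK, had a median of 0.23 on the log2 scale, and 6 of them were called. The 2680 genes of that length had a median of 0.10, with 17.9% called toward the HA-IPs. KNL1, at 6948 nucleotides, had a higher log2 fold change than its partner ZWINT, at 831. NDC80 and NUF2, at 1926 and 1392 nucleotides, had higher ones than SPC24 and SPC25, at 591 and 672. Other members went against this order. SKA3, at 1236 nucleotides, stood at -0.21 on the log2 scale against -0.057 for SKA1, at 765. CENPU, at 1254 nucleotides, was the lowest of the CENP-OPQUR group at -0.19, while CENPA, at 420, stood at 0.27.

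**Figure D5:**
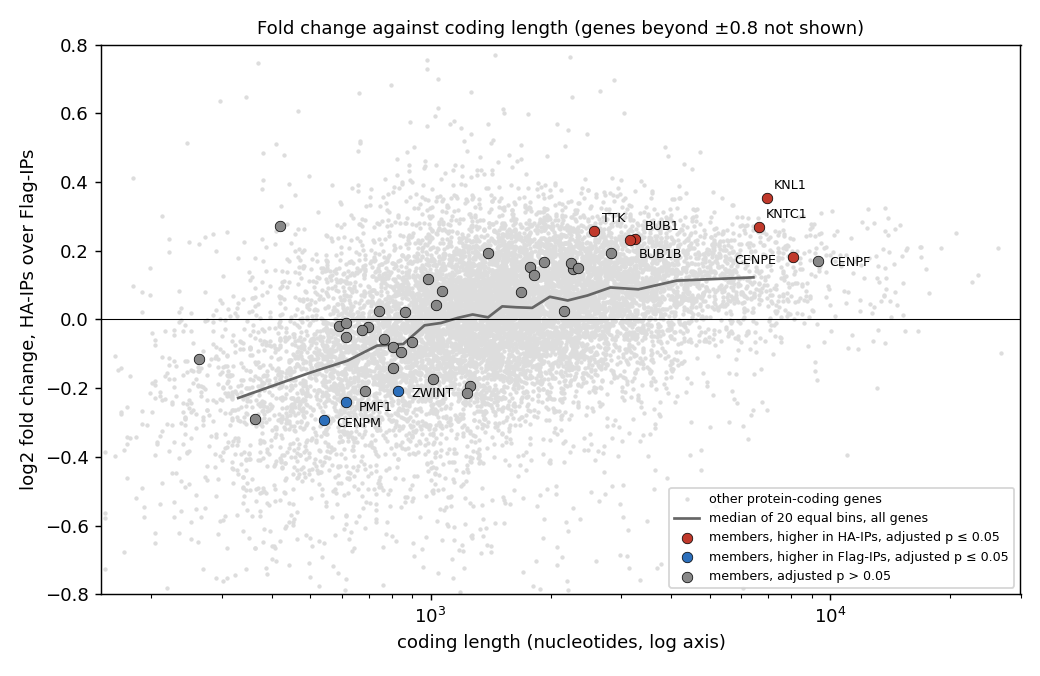
Log2 fold change, HA-IPs relative to Flag-IPs, against coding length (log axis) for the 42 members (coloured by call) and the other protein-coding genes averaging at least 50 normalized counts (light grey, beyond ±0.8 not shown), with the median of 20 bins of equal size. The bin medians run from below 0 in the shortest genes to above 0 in the longest, and KNL1, KNTC1, TTK, BUB1 and BUB1B lie above them while CENPM, PMF1 and ZWINT lie below.

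When trends with GC content and coding length were removed from each library, an alternative chosen after this order had been seen, 5 members were called toward the HA-IPs and 1 toward the Flag-IPs, beside 6.52% and 6.69% of the genes in that fit. KNTC1 (log2 fold change 0.15, adjusted p = 0.0166 in limma), TTK (0.20, 0.0147), KNL1 (0.25, 0.0280) and BUB1 (0.14, 0.0434) passed again, BUB3 (0.14, 0.0231) was added, and SKA3 (-0.22, 0.0443) was the call toward the Flag-IPs. BUB1B (0.14, 0.0763) and CENPE (0.099, 0.250) no longer passed, and neither did ZWINT (-0.14, 0.0601), PMF1 (-0.090, 0.413) and CENPM (-0.10, 0.412). All 10 checkpoint genes then had a positive log2 fold change, with a median of 0.13. Spearman's rho with coding length became 0.33 over the members and 0.0052 over all genes in this fit.

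Genes that act beside the members were listed as 6 groups of 47 genes in all. Of these, 7 were called toward the HA-IPs and 5 toward the Flag-IPs in limma, 35 did not pass, and their median was 0.056 on the log2 scale. Those calls were 7 and 5 of 47, beside 5.79% and 7.10% of all genes. Among the 5 activators and ubiquitin-conjugating enzymes of the anaphase-promoting complex, 3 were higher in the HA-IPs, namely CDC20, the activator that the checkpoint complex sequesters (0.23, adjusted p = 0.00840), FZR1, the activator used from late mitosis into G1 (0.19, 0.0269), and UBE2S, the enzyme that extends ubiquitin chains (0.52, 0.0138). UBE2S varied within groups, at 4674, 5206 and 6544 normalized counts in the Flag-IPs against 8322, 8452 and 6683 in the HA-IPs. Of the 14 subunits of that complex, ANAPC1, its large scaffold, was higher in the HA-IPs (0.19, 0.0241), and the small subunits ANAPC11 (-0.34, 0.0238), ANAPC13 (-0.38, 0.0434) and ANAPC16 (-0.45, 0.0199) were higher in the Flag-IPs.

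Of 7 genes of the passenger complex, PLK1 and shugoshins, SGO2, which protects centromeric cohesin and recruits the depolymerase KIF2C, was higher in the HA-IPs (0.27, adjusted p = 0.00980 in limma), and BIRC5, which encodes survivin, was higher in the Flag-IPs (-0.29, 0.00294). BIRC5 stood at 6211, 6366 and 5973 normalized counts in the Flag-IPs against 5048, 5060 and 5075 in the HA-IPs, with no overlap. Of 9 motors, adaptors and other microtubule regulators, CLASP2, a microtubule rescue factor (0.30, 0.00537), and KIF2C (0.22, 0.0189) were higher in the HA-IPs. NDEL1, a dynein regulator, was higher in the Flag-IPs (-0.31, 0.0436). None of the 7 checkpoint silencing genes and none of the 5 other centromere subunits passed in limma, with 2 of each at an unadjusted p under 0.05.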

How the data were processed

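RNA bound to Flag-RPL10a-hCdt or HA-RPL10a-hGem was isolated from HEK293-T Flp-In cells, and polyadenylated RNA was sequenced with paired reads of 150 bp. Per the methods and the submitters' processing notes, the authors used Trimmomatic 0.36 for trimming, STAR 2.5.2b for alignment to GRCh38 and featureCounts (Subread 1.5.2) for counts per gene, then excluded genes with few reads and divided the counts by a DESeq2 size factor per library. The deposited signal is therefore a normalized count per gene and library. The deposited table also has a log2 fold change and an adjusted p-value of the authors' own HA-IP against Flag-IP comparison, and neither column was used.

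Libraries were compared on log2(normalized count + 1) in limma 3.58.1 (R 4.3.3), without covariates, with a variance trend, two-sided, and with the Benjamini-Hochberg adjustment over all 16834 genes. A fold change on this scale understates the change of low genes. Whole reads were recovered for 100% of values, in every library, for edgeR 4.0.16 and DESeq2 1.42.0. The tests were checked on simulated data, where limma with the trend, the block, edgeR and DESeq2 recovered most changed genes and limma without the trend recovered none. Coordinates and lengths came from canonical transcripts of GENCODE 44, which hold 16683 of the 16834 identifiers (99.1%). Trends were fitted by robust regression (MASS 7.3.60.0.1) on natural splines of 5 degrees of freedom. Motifs and tables were handled in Python 3.11.15. Reads in bases shared by overlapping genes may have been dropped or credited to another gene, and the counting options are not given in the sources used here.

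The members, gene lists, markers and tests were chosen with earlier results of these data known. Values in every library are given for members with an adjusted p of at most 0.05, for the member with the smallest adjusted p and the one with the lowest fold change of each class, and for subunits of the NDC80, MIS12, SKA and RZZ complexes. CENPF, UBE2S and BIRC5 were given so after their values were seen. Of the other pathway genes those with an adjusted p of at most 0.05 are named. Alternatives were a pseudocount of 0.1 or 10, a minimum mean of 50 normalized counts, 3 other scalings, edgeR, DESeq2, limma without the trend, a replicate block, each library left out, an adjusted p of at most 0.01, and removal of trends with GC content and transcript length. Removal of trends with GC content and coding length was added after seeing the data.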

Additional observations from a re-analysis of the deposited data

How the results depend on the processing

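The 6 calls toward the HA-IPs and 3 toward the Flag-IPs were the same in number with pseudocounts of 0.1 and 10, equal upper quartiles and edgeR, and the number toward the HA-IPs was within 1.5 times of 6 with every other tool and scaling tried except limma without the variance trend, which called 0 members in either direction (beside 0.0356% and 1.08% of all genes, with 10 and 5 members at an unadjusted p under 0.05). That fit also recovered no changed gene in simulated data, but those data used the same spread setting for all genes. In the real data it did call other genes, so its 0 member calls remain a limit on the calls above. At an adjusted p of at most 0.01 limma made 3 calls toward the HA-IPs and 0 toward the Flag-IPs, beside 1.05% and 3.13% of all genes, where 6 members toward the Flag-IPs had an unadjusted p under 0.05. Leaving out 1 library gave 2 to 7 calls toward the HA-IPs, 0 to 3 toward the Flag-IPs and a member median of 0.015 to 0.10. Removal of trends with GC content and transcript length gave 9 calls toward the HA-IPs (beside 8.15% of genes), with HJURP, NDC80, NUF2 and ZWILCH added and CENPE lost. Calls toward the Flag-IPs were 1 with quantile normalization (beside 5.96% of genes), 0 in limma after removal of trends with GC content and transcript length (4 at an unadjusted p under 0.05, beside calls in 7.39% of genes), and 1 after removal of trends with GC content and coding length. The member median was -0.028 with equal totals, 0.086 after removal of trends with transcript length and 0.081 with coding length. Fits that leave out a library test fewer samples, and the cause of the other shifts was not tested.

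With the replicate number as a block there were 7 calls toward the HA-IPs, with CENPF added, and 1 toward the Flag-IPs, ZWINT, beside 4.47% and 5.41% of all genes. The deviations of same-numbered libraries from their group means correlated at -0.16, 0.031 and -0.31. With 3 libraries per group these correlations are not independent, so they cannot decide whether same-numbered samples were paired.

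None of the members that changed sign had passed the test. With equal totals the log2 fold changes were -0.028 for CENPH, -0.011 for CENPL, -0.030 for CENPP and -0.028 for MAD1L1, and with quantile normalization 0.023 for SPC24 and 0.016 for SPC25. After removal of trends with GC content and transcript length they were 0.081 for CENPK, -0.030 for CENPP, 0.090 for CENPW, 0.077 for MIS18A and 0.091 for SPC25. With coding length they were 0.043 for CENPK, 0.13 for CENPW, 0.074 for MIS18A, 0.11 for SPC24, 0.067 for SPC25, 0.061 for MIS12, 0.019 for SKA1 and 0.11 for MAD2L1. With 1 library left out they ran from -0.051 to 0.098 for CENPH, -0.064 to 0.21 for CENPL, -0.30 to 0.057 for CENPQ, -0.20 to 0.034 for CENPW, -0.11 to 0.023 for MIS18A, -0.071 to 0.053 for SPC24, -0.086 to 0.039 for SPC25, -0.16 to 0.11 for MIS12, -0.23 to 0.061 for NSL1 and -0.096 to 0.11 for MAD2L1.

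With 3 libraries per group, the precision rests on few samples, and the member with the fewest reads had 159 in its lowest library.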
